A study of Mus musculus with 29 samples.

Results

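The genes described here build and run the calcium release unit of the heart muscle cell: the junctophilins Jph2 and Jph1, the release channel Ryr2 with its partners Trdn, Casq2 and Hrc, the entry channel Cacna1c, the calcium pump Atp2a2 with its inhibitor Pln, and the exchanger Slc8a1. They were taken by symbol from the deposited expression table, where all 10 were found among 29955 genes. Expression was measured by RNA sequencing of mouse hearts (strain C57BL6 in the labels, C57BL/6J in the study's methods) in heart failure (HF), in recovery from it and in control. In the HF groups, male mice aged 3 months drank water with 0.3 mg/ml L-NAME, which blocks nitric oxide synthesis, and 1% NaCl, and from the end of week 1 an osmotic pump delivered 0.7 mg/kg per day of angiotensin II, a hormone that constricts vessels. After 5 weeks both were withdrawn, and the Recovery groups were followed without drugs. Control mice were age-matched and received neither. Of the 24 libraries used, 2 came from HF at week 3 and 3 at week 5. Recovery gave 2 libraries each at weeks 7, 9 and 13, 3 at week 11 and 5 at week 19, and control gave 5 at week 19.

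Each heartbeat depends on a small entry of calcium through the L-type channel in the transverse tubules, which opens the ryanodine receptor on the facing sarcoplasmic reticulum and releases a much larger store. Junctophilins hold the tubule and the reticulum at a fixed short distance, and calsequestrin, triadin and the histidine-rich calcium binding protein lie at or in the reticulum beside the release channel. Calcium is then pumped back by SERCA2a, which phospholamban restrains, or leaves the cell through the sodium-calcium exchanger. Loss of junctophilin-2 and of SERCA2a is a known feature of failing heart muscle.

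Values are in FPKM, fragments scaled by transcript length and library size, so that genes can be compared with each other. The library numbers in this text name no labelled animal, and nothing ties a column to one animal, so that a p-value measures only the spread between these libraries. Control week 19 served as the control throughout. It is 14 weeks later than HF week 5, and the age of the mice and the HF protocol cannot be told apart in those comparisons. Several libraries stood apart. HF week 3 library 1 listed 12816 genes above 0 against 16339 to 18091 in the others. Both HF week 3 libraries and HF week 5 library 1 carried high levels of genes of the atrium, although the labels name the ventricle: the atrial light chain Myl7 was at 1805 and 5773 in HF week 3 and at 18388, 152 and 6.16 in HF week 5, against at most 1.12 in control. The summed level of the 6 atrial markers was 7737 to 14051 in HF week 3, 2230 to 81737 in HF week 5 and 91.2 to 353 in control, with Nppa listed at 0 in HF week 3. In HF week 5 libraries 2 and 3 most of this sum was Nppa, at 2100 and 2214, which ventricle under load makes as well. Another of the 6, Kcnj3, went the other way, at 2.28, 0.688 and 0.367 in HF week 5 against a control median of 3.99. Of the cardiomyocyte markers, Tnnt2 was at 8006 to 9465 in control, whereas Myh6, Myl2 and Mb were listed at 0 in every control library. Myh6 was also at 0 in every HF week 5 and Recovery week 19 library, but at 37546 to 316195 in HF week 3 and Recovery weeks 7 to 13. Comparisons of these last groups with control or with HF week 5 cross that split, and its part in them was not tested. Such zeros of abundant genes follow whole groups and cannot be read as absence. No member was listed at 0 in control. Relative depth, read from the steps between low values in 23 libraries, ranged from 0.746 to 1.39, and the absolute depth is unknown.

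The control regions of some of the members that moved together are shown first. Upstream sequence was found in RefSeq windows of the build GRCm38.p6 for 7 of the 10 genes, in 10 windows. The 250 bases before the start site of Jph2, Casq2 and Slc8a1, which were called in both main comparisons below, are printed here. Pln was called in both as well, and its window is not printed. Capitals mark matches on either strand to the E-box (CANNTG), to the MCAT element (CATTCC), to the site of the GATA factors (TGATAA), to the MEF2 site or to the CArG box. The Jph2 window is chr2:163397994-163398243 on the minus strand, the Casq2 window is chr3:102086165-102086414 on the plus strand and the Slc8a1 window is chr17:81738388-81738637 on the minus strand.
Jph2: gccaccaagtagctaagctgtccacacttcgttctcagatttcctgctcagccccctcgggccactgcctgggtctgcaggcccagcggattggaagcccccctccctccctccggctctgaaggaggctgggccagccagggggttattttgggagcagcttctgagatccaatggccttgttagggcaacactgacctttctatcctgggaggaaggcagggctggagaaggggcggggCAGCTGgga
Casq2: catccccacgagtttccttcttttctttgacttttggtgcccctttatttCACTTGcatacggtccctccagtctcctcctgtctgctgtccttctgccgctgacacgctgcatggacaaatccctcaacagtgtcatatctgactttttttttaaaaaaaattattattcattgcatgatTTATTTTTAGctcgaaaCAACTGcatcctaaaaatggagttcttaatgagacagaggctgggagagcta
Slc8a1: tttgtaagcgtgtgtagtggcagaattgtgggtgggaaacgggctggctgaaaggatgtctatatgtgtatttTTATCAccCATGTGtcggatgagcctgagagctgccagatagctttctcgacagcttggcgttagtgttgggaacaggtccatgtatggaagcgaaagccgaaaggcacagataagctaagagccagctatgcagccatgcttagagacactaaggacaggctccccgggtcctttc
All 10 windows of the members held an E-box, as did 66.2% of all 32851 windows of this length. The 10 windows are not independent, since Jph2 has 2 that overlap and share their E-box match and Cacna1c has 3. The GATA letters stood in the windows of Slc8a1 and Pln, against 7.94% of all windows, and the MEF2 letters in that of Casq2, against 2.92%. No member window held MCAT or a CArG box, which stood in 12.6% and 1.47% of all windows. These matches describe the sequence and no binding was measured. The guanine and cytosine content of the Jph2 window was 62.0%, against a median of 52.4% over all windows. It was 41.6% for Casq2 and 50.4% for Slc8a1, and the member windows ranged from 32.8% (Pln) to 82.8% (Cacna1c).

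In control hearts the pump and its inhibitor were the most abundant members. The mean of the 5 control libraries was 1919 FPKM for Atp2a2, 1483 for Pln, 455 for Hrc, 287 for Casq2, 99.3 for Jph2, 78.3 for Trdn, 33.3 for Ryr2, 22.2 for Cacna1c, 11.1 for Slc8a1 and 1.83 for Jph1. Neighbours in this order overlapped for Atp2a2 (1555 to 2098) and Pln (1418 to 1566) and for Jph2 (47.6 to 124) and Trdn (61.5 to 97.2), and the other neighbours did not overlap. Jph2 ranked 5 among the 10 in control and in Recovery weeks 7, 9 and 19. In HF week 5 it ranked 8, below Ryr2 and Cacna1c, and it was above Slc8a1 and Jph1 alone.

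**Figure D1:**
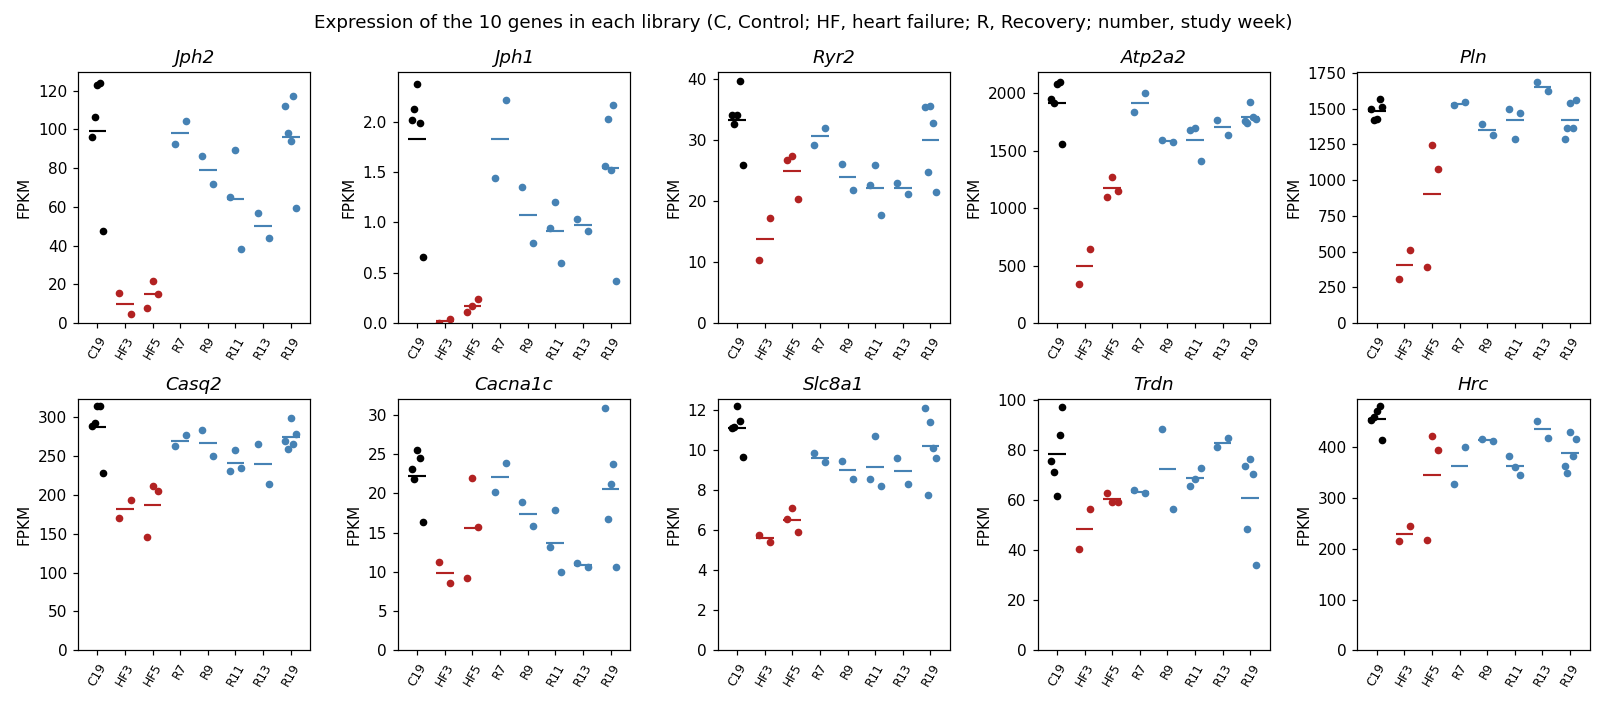
Expression in FPKM (vertical axes, each from 0) of the 10 genes in each of 24 libraries by group; points are libraries and bars group means, with control in black, HF in red and recovery in blue. Jph2, Jph1, Atp2a2, Pln, Casq2 and Slc8a1 in HF week 5 lie below every control library, and Trdn overlaps control in all groups but HF week 3.

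The first question was which parts of the release unit differed in established HF. At HF week 5, 7 of the 10 genes fell relative to control at an adjusted p under 0.05 (limma, Benjamini-Hochberg over all 12759 genes tested), where 12.4% of all genes were called lower, and none was higher. All 10 passed the filter on low values. The median log2 fold change was -0.66 over the members and 0.04 over all genes tested. Fold changes are on the scale of log2(FPKM + 0.5), which understates changes of genes as low as Jph1. In 6 of the 10 the HF libraries lay below every control library, a pattern found for 14.7% of all genes. Fewer heart muscle cells and less RNA per cell cannot be told apart in RNA of whole tissue. Markers of other cells were measured beside these falls: the summed level of 8 fibroblast markers was 357 to 707 in HF week 5 and 253 to 360 in control, and that of 6 endothelial markers was 323 to 411 against 229 to 274. Within the endothelial list the largest part was Egfl7, at 182, 158 and 192 against a control median of 82.8, whereas Kdr was at 5.86, 13.9 and 21.3 against 14.8 and Cdh5 at 33.0, 45.5 and 58.7 against 47.8. Markers of smooth muscle and pericytes summed to 176 to 257 against 105 to 130, mostly Acta2 and Tagln, whereas Rgs5 in the same list was at 8.13, 14.7 and 22.4 against a control median of 21.3, and markers of macrophages, at 204 to 390 against 174 to 276, overlapped. The part of these cells in the falls was not tested. Of 15 cardiomyocyte markers, 12 were above 0 in every group, and their summed level was 43615, 83956 and 75348 in the HF week 5 libraries and 71461 to 86116 in control. In library 1, 11 of the 12 were below every control library, against 1 and 2 in libraries 2 and 3, where 5 and 2 of them were above every control library.

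The junctophilins fell most. Jph2, the main junctophilin of heart muscle, was at 7.80, 22.0 and 14.8 FPKM in the HF week 5 libraries and at 96.3, 106, 123, 124 and 47.6 in control. The highest HF library was below the lowest control library. The mean fell to 14.97% of control, a log2 fold change of -2.74 with an SE of 0.384 (limma adjusted p = 0.000126), and only 2 of the 12759 genes had a lower fold change. Jph1, the relative that predominates in skeletal muscle, was at 0.115, 0.172 and 0.236 in HF and at 2.02, 2.12, 2.38, 1.99 and 0.661 in control, so that it was low throughout and still without overlap. Its mean was 9.51% of control, a log2 fold change of -1.73 with an SE of 0.308 (adjusted p = 0.000757). In HF week 5 library 3, where Myl7 was 6.16, both genes were below every control library as well, and the part of atrial cells in these values was not tested. The 2 genes kept their calls under every alternative tried, with log2 fold changes from -3.07 to -2.35 for Jph2 and from -2.73 to -1.23 for Jph1.

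At the release channel, the calcium buffer was called lower and the channel was not, but a difference between these changes was not shown: the log2 ratio of Casq2 to Ryr2 differed from control by -0.21 (exact permutation p = 0.429). Casq2, the calsequestrin of heart muscle, was at 146, 211 and 205 in HF week 5 and at 288, 292, 314, 315 and 228 in control, with no overlap. It fell by 0.63 on the log2 scale (SE 0.131, limma adjusted p = 0.00231). Ryr2, the release channel, was at 26.8, 27.3 and 20.4 against 34.1, 32.6, 34.1, 39.7 and 25.9 in control, and the lowest control library lay among the HF values. Its log2 fold change of -0.41 was not called (95% interval -0.81 to -0.02, adjusted p = 0.117), and it passed at an adjusted p only after removal of each library's trend with GC content and length (adjusted p = 0.0261). Trdn, which anchors calsequestrin to the channel, was at 62.9, 59.1 and 59.5 in HF and at 75.5, 71.2, 61.5, 86.1 and 97.2 in control. Its log2 fold change of -0.35 was not called (95% interval -0.80 to 0.10, adjusted p = 0.251). Hrc, a calcium binding protein of the reticulum, was at 216, 422 and 395 in HF and at 454, 458, 470, 481 and 413 in control. It was called at a log2 fold change of -0.46 (adjusted p = 0.0410), but the low value came from library 1, and without that library the fold change was -0.16 with an adjusted p of 0.413. The call of Hrc was lost under 9 of the alternatives in all.

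The entry channel was not called, and its value rested on single libraries. Cacna1c, the pore of the L-type channel, was at 9.18, 21.9 and 15.7 in HF week 5 and at 23.1, 21.8, 25.5, 24.5 and 16.3 in control. HF week 5 library 2 lay within the control range and library 1 well below it. The log2 fold change was -0.56 (95% interval -1.15 to 0.02, limma adjusted p = 0.149), and it was -0.85 without library 2 (adjusted p = 0.0478) and -0.24 without library 1 (adjusted p = 0.652).

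The transcripts of the pump, its inhibitor and the exchanger were called lower. Atp2a2, which encodes SERCA2a, was at 1097, 1274 and 1153 in HF and at 1946, 1912, 2083, 2098 and 1555 in control, without overlap. The mean was 61.2% of control (log2 fold change -0.70, SE 0.158, limma adjusted p = 0.00388). Pln was at 395, 1243 and 1079 against 1496, 1418, 1424, 1566 and 1510, also without overlap, but library 1 was far below the other HF libraries. Its log2 fold change was -0.87 (adjusted p = 0.0157) and became -0.36 without library 1, with an adjusted p of 0.144, and it was not called with only these 2 groups in the fit (adjusted p = 0.0768). Slc8a1, the sodium-calcium exchanger, was at 6.56, 7.08 and 5.91 in HF, without overlap with 11.1, 11.2, 12.2, 11.5 and 9.65 in control. It fell by 0.73 on the log2 scale (SE 0.126, adjusted p = 0.000592). When each library was centred on its cardiomyocyte markers, Atp2a2 and Slc8a1 were no longer called (adjusted p = 0.0675 and 0.0991), nor was Hrc. Jph2, Jph1 and Pln were called, and Casq2 was at the threshold, with a log2 fold change of -0.40 and an adjusted p of 0.0497.

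**Figure D2:**
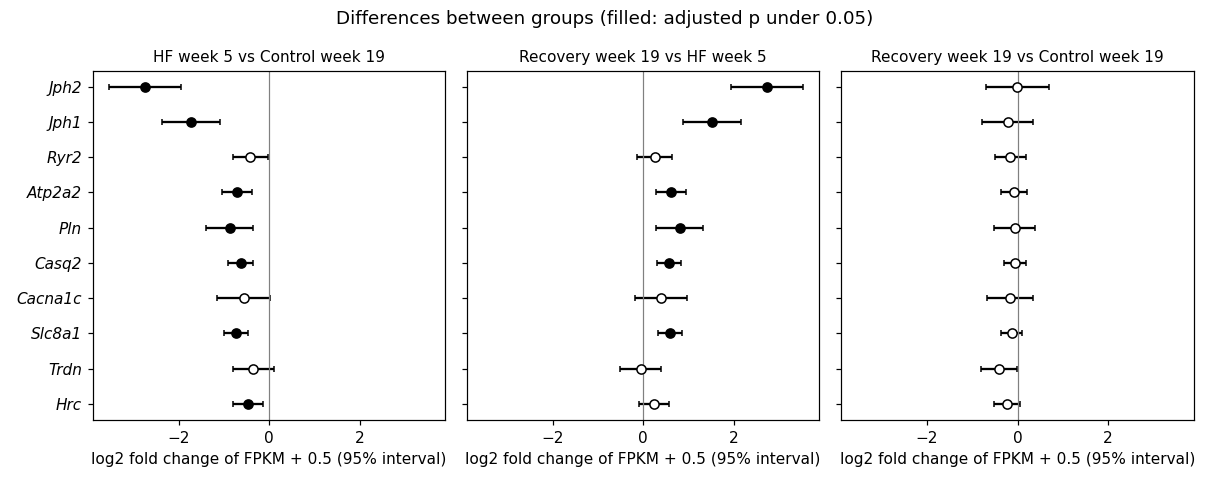
Log2 fold change of FPKM + 0.5 with its 95% interval (horizontal axis) for the 10 genes in 3 comparisons; filled points have an adjusted p under 0.05. Jph2 and Jph1 stand at -2.74 and -1.73 in HF week 5 against control and at 2.73 and 1.51 in Recovery week 19 against HF week 5, and no point is filled in Recovery week 19 against control.

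The next question was whether these genes returned after withdrawal of the drugs. Between HF week 5 and Recovery week 19, 6 of the 10 rose and none fell, where 12.3% of all genes were called higher. This comparison shares its HF libraries with the one above, so that the low HF values enter both. Some markers of other cells moved beside it. The summed level in Recovery week 19 was 237 to 267 for endothelial cells, 107 to 148 for smooth muscle and pericytes and 178 to 753 for the atrial genes. These were below every HF week 5 library. The sums of fibroblasts (312 to 458 against 357 to 707) and macrophages (194 to 413 against 204 to 390) overlapped HF week 5. So did the 12 cardiomyocyte markers, at 54888 to 95637 in Recovery week 19. The part of these cells in the rise was not tested. Jph2 was at 112, 98.3, 94.2, 117 and 59.2 in Recovery week 19, each above all HF week 5 libraries, and the log2 fold change was 2.73 with an SE of 0.384 (limma adjusted p = 0.000128). Jph1 was at 1.56, 2.03, 1.52, 2.16 and 0.418, again without overlap, with a log2 fold change of 1.51 (adjusted p = 0.00197). Casq2 rose by 0.57, Slc8a1 by 0.60, Atp2a2 by 0.61 and Pln by 0.81 on the log2 scale, with adjusted p-values from 0.00246 to 0.0233. In Recovery week 19 the libraries of Casq2 were at 259 to 299, of Slc8a1 at 7.76 to 12.1, of Atp2a2 at 1739 to 1926 and of Pln at 1285 to 1560, all above HF week 5. The rise of Pln was no longer called without HF week 5 library 1, where its log2 fold change was 0.29 (adjusted p = 0.228), nor with only these 2 groups in the fit (adjusted p = 0.120). With centring on cardiomyocyte markers Atp2a2 (log2 fold change 0.49, adjusted p = 0.0693) and Slc8a1 (0.48, adjusted p = 0.138) were not called either. Ryr2 (0.25), Cacna1c (0.39), Hrc (0.23) and Trdn (-0.06) were not called. Of these, Cacna1c was 0.066 without HF week 5 library 1 and 0.67 without library 2, and Ryr2 was 0.12 without library 3.

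Against control, no member was called in Recovery week 19, in either direction, and 0.0235% of all genes were called. All 10 log2 fold changes were below 0, with a median of -0.15 against -0.01 over all genes tested, and those of Jph2, Atp2a2, Pln and Casq2 were above 0 after centring on cardiomyocyte markers. At an unadjusted p under 0.05 limma called 1 member, Trdn, and 2.88% of all genes. Jph2 was at 96.8% of the control mean and Jph1 at 84.0%, and the 95% intervals of their log2 fold changes were -0.70 to 0.69 and -0.78 to 0.34, so that a remaining difference of that size was not detectable. The intervals were narrower for Slc8a1 (-0.36 to 0.10), Casq2 (-0.30 to 0.18) and Atp2a2 (-0.37 to 0.20). Trdn had the lowest fold change, with values of 73.8, 48.6, 76.6, 70.3 and 34.2 in Recovery week 19 and a log2 difference of -0.41 (unadjusted p = 0.0411), which was -0.22 without Recovery week 19 library 5. Library 5 of Recovery week 19 was the lowest of its group for Jph2, Jph1, Ryr2, Cacna1c and Trdn, and library 5 of Control week 19 was the lowest of its group for Jph2, Jph1, Ryr2, Cacna1c, Slc8a1, Casq2, Atp2a2 and Hrc.

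In HF week 3, in the course of induction, all 10 genes were lower than in control, where 27.6% of all genes were called lower, and their median log2 fold change was -1.20. Jph2 was at 15.7 and 4.47 (log2 fold change -3.40, limma adjusted p = 7.09e-06). Jph1 was listed at 0 in library 1 and was 0.0396 in library 2. Atp2a2 was at 344 and 646, and its mean of 25.8% of control was the lowest after the junctophilins (log2 fold change -2.02, adjusted p = 1.66e-07). Pln was at 308 and 510, Ryr2 at 10.4 and 17.1, Cacna1c at 11.3 and 8.53, Hrc at 215 and 244, Slc8a1 at 5.78 and 5.43, Casq2 at 171 and 193 and Trdn at 40.6 and 56.3. Every one of these values was below all control libraries, a pattern found for 23.9% of all genes. Casq2 had the smallest change (-0.65), and Casq2, Cacna1c, Slc8a1 and Trdn were no longer called after centring on cardiomyocyte markers. The call of Trdn was also lost with quantile normalization, without HF week 3 library 1 (log2 fold change -0.45, adjusted p = 0.296, where the library left is assumed to vary like the other groups) and without Control week 19 library 5 (adjusted p = 0.0525). The high atrial genes of both libraries were given above. Summed markers of other cells were also higher than in control. The summed level was 740 to 747 for fibroblasts, 314 to 408 for endothelial cells and 188 to 211 for smooth muscle and pericytes. It was 308 to 335 for macrophages and 27.1 to 97.5 for skeletal muscle, the last against 8.32 to 10.8. Most of the skeletal muscle sum of 97.5, in library 1, was Tnni2 at 83.3. In the same list Myh4 and Myh1 were at most 0.0128 and 0.0113 in any library. The 12 cardiomyocyte markers summed to 52210 in library 1 and 50917 in library 2, below every control library. By single marker, 7 of the 12 in library 1 and 9 in library 2 were below every control library. In library 1, 2 of them were above every control library. The part of these cells in the values of HF week 3 was not tested.

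The pump, its inhibitor and the release channel were lower in week 3 than in week 5 of HF. Of the 10 genes, 3 were called lower, where 13.1% of all genes were: Atp2a2 (log2 fold change -1.31, limma adjusted p = 0.000531), Pln (-1.03, adjusted p = 0.0279) and Ryr2 (-0.86, adjusted p = 0.0199). Jph2 (-0.66) and Jph1 (-0.37) were not called, with adjusted p-values of 0.314 and 0.486. The value of Jph2 was -1.05 without HF week 5 library 1 and -0.33 without HF week 5 library 2, not called in either. Without HF week 3 library 1, and likewise without HF week 5 library 2, only Atp2a2 was called, and with only these 2 groups in the fit none was. The first of these leaves 1 library in week 3, whose spread is taken from the other groups. With centring on cardiomyocyte markers Ryr2 was not called (-0.54, adjusted p = 0.241). Pln was not called without HF week 5 library 3 (adjusted p = 0.0961), and Hrc was called without HF week 5 library 1 (log2 fold change -0.83, adjusted p = 0.000398).

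A rise was already called at week 7, the first Recovery group. Against HF week 5, 5 of the 10 were higher and none was lower, where 8.05% of all genes were called higher. The summed level of markers was below every HF week 5 library for fibroblasts (269 to 355), endothelial cells (218 to 242), smooth muscle and pericytes (112 to 113), macrophages (146 to 148) and the atrial genes (382 to 666), and their part in the rise was not tested. Jph2 was at 92.3 and 104 (log2 fold change 2.80, limma adjusted p = 0.00148) and Jph1 at 1.44 and 2.21 (1.77, adjusted p = 0.00592). Atp2a2, Casq2 and Slc8a1 rose by 0.71, 0.55 and 0.53. They were not called with only these groups in the fit (limma adjusted p = 0.125, 0.175 and 0.0916). With centring on cardiomyocyte markers they were not called either (adjusted p = 0.0985, 0.114 and 0.337). Pln had a log2 fold change of 0.92 with an adjusted p of 0.0510 and was called under 8 of 15 alternatives. Without HF week 5 library 1 only 2 genes were called, Jph2 and Jph1, with log2 fold changes of 0.66 for Atp2a2, 0.37 for Casq2, 0.54 for Slc8a1 and 0.40 for Pln. The week 7 means of Jph2, Jph1, Atp2a2, Cacna1c and Pln were 98.9%, 99.6%, 99.9%, 99.0% and 103% of control. Those of Casq2, Ryr2 and Slc8a1 were 93.8%, 91.9% and 86.6%, and those of Trdn and Hrc were the lowest at 81.0% and 79.9%. Hrc, at 327 and 401, was below every control library.

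In weeks 9 to 13 the group means of several members were below that level, without a call. Jph2 was at 86.2 and 72.0 in week 9, at 65.1, 89.5 and 38.2 in week 11 and at 56.7 and 43.9 in week 13, which are group means of 79.7%, 64.7% and 50.6% of control, before the 96.8% of week 19. Cacna1c followed a like course, with 18.9 and 15.9 in week 9, 13.2, 17.8 and 9.99 in week 11 and 11.1 and 10.7 in week 13, where its mean was 48.9% of control. Ryr2 was at 72.0%, 66.3% and 66.3% and Jph1 at 58.4%, 49.96% and 53.2% of control in these weeks, whereas Pln was at 91.3%, 95.6% and 112%. None of the 10 genes was called against control at an adjusted p under 0.05 in week 7, 9, 11 or 13, where 0.0470%, 0.0549%, 0.149% and 0.0784% of all genes were called. With only the groups compared in the fit, Cacna1c was called lower in week 13 (-0.98, adjusted p = 0.0244). At an unadjusted p under 0.05 limma called 0, 1, 4 and 2 members, against 3.61%, 3.60%, 8.45% and 10.4% of all genes. In week 9 this was Ryr2, in week 11 these were Jph1, Ryr2, Cacna1c and Slc8a1, and in week 13 they were Ryr2 (log2 fold change -0.57, adjusted p = 0.361) and Cacna1c (-0.98, adjusted p = 0.304). Without HF week 5 library 1, Recovery week 19 library 5 and Control week 19 library 5 together, Jph1, Ryr2, Cacna1c and Hrc were called lower in week 11 and Jph1 and Cacna1c in week 13 at an adjusted p under 0.05, whereas without Control week 19 library 5 alone none was. These libraries were chosen after seeing the data, and the control library is the lowest of its group for each of these 4 genes, so that leaving it out raises the control mean. Macrophage markers summed to 303 to 412 in week 11 and 370 to 453 in week 13, above the 276 of the highest control library, and fibroblast markers to 411 to 679 and 389 to 504, above the highest control value of 360. Their part in these levels was not tested.

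**Figure D3:**
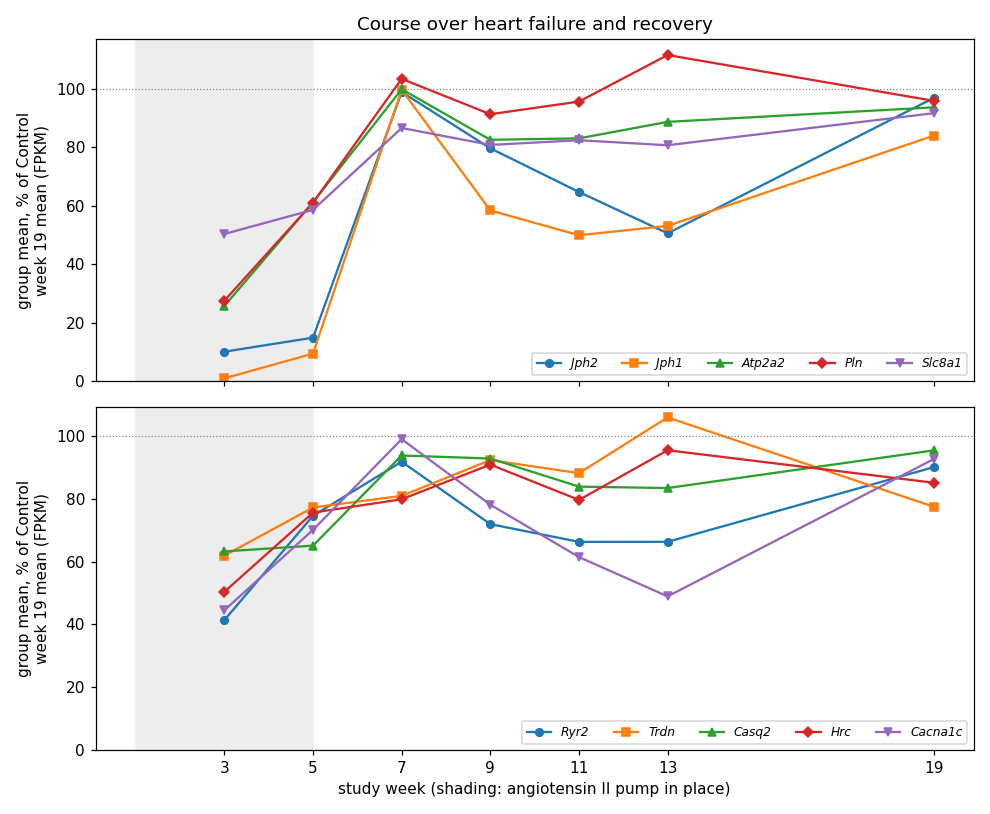
Group mean as a percentage of the Control week 19 mean (vertical axis, from 0) against study week for the 10 genes, with the weeks of the angiotensin II pump shaded; each week holds other animals and lines only join group means. Jph2 goes from 14.97% in HF week 5 to 98.9% in week 7, 50.6% in week 13 and 96.8% in week 19.

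The course after week 7 ran beside a measure of each library, its trend with transcript length. For each library, the difference of all genes from control was ranked against transcript length. The Spearman correlation was -0.40 and -0.36 in the week 13 libraries, -0.43 in Recovery week 19 library 5, -0.20 in Control week 19 library 5 and 0.45 in Recovery week 19 library 1, so that long transcripts read low in some libraries and high in others. Across the 19 control and recovery libraries, which share this measure through their own genes, its Pearson correlation with the member's level was 0.90 for Cacna1c, 0.86 for Ryr2, 0.80 for Jph2, 0.74 for Slc8a1, 0.70 for Jph1, 0.56 for Atp2a2, 0.55 for Casq2, 0.24 for Trdn, -0.07 for Hrc and -0.36 for Pln. The transcripts of Trdn and Jph2 were of like length, at 4514 and 4211 bases. In HF the Spearman values were -0.10 to 0.04, within the control range, and Jph2 was below control in every HF library. After removal of each library's trend with GC content and length, the week 13 log2 fold change was -0.78 for Jph2, -0.77 for Cacna1c and -0.34 for Ryr2, against -0.91, -0.98 and -0.57 before. The part of this trend in the members' course and in HF was not tested.

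**Figure D4:**
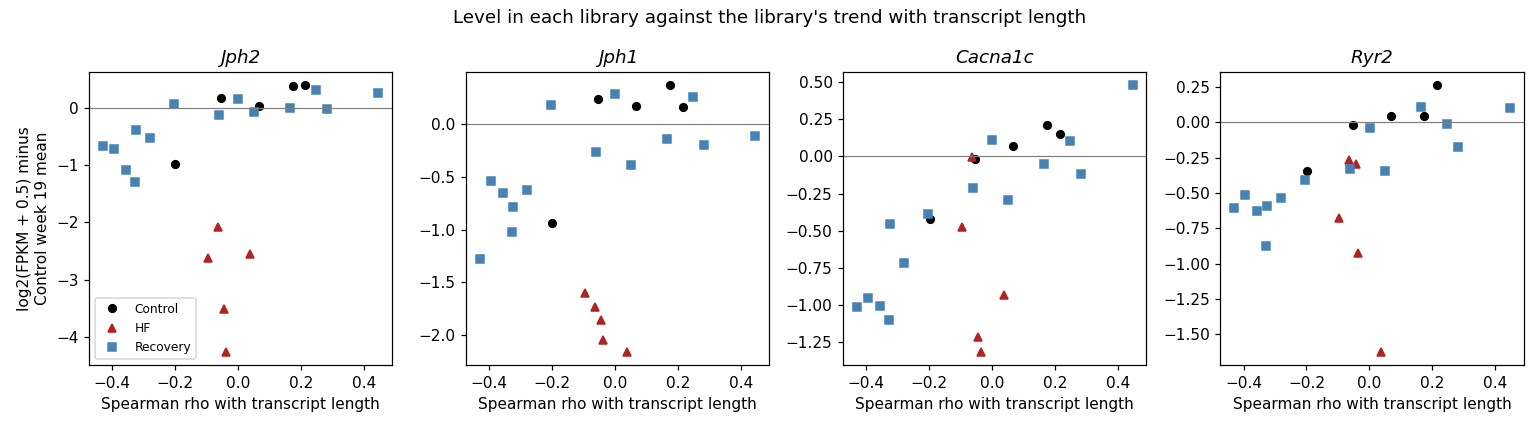
Difference of log2(FPKM + 0.5) from the Control week 19 mean (vertical axes) against the library's Spearman rho with transcript length (horizontal axes) for Jph2, Jph1, Cacna1c and Ryr2 in 24 libraries. Control and recovery libraries with a rho below -0.2 lie mostly under 0, and the HF libraries lie lowest for Jph2 and Jph1 at a rho from -0.10 to 0.04.

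Ratios between members within a library do not depend on the library's scale. The ratio of Jph2 to Jph1, of Atp2a2 to Pln, of Slc8a1 to Atp2a2 and of Casq2 to Ryr2 was compared between HF week 5, Recovery week 19 and Control week 19, which made 12 comparisons. None passed an exact two-sided permutation test, with an adjusted p of at least 0.874, and none had an unadjusted p under 0.05. With 3 against 5 libraries the smallest p that the test allows is 0.0357, so that no single ratio could pass after adjustment over 12 comparisons and the lack of a call says nothing of likeness. The ratio of the exchanger to the pump, Slc8a1 to Atp2a2, had a mean log2 ratio of -7.50 ± 0.11 (SD, n = 3) in HF week 5 and -7.43 ± 0.07 (SD, n = 5) in control, a difference of -0.07 (exact permutation p = 0.321). Jph2 to Jph1 was at 6.35 ± 0.56 (SD, n = 3) against 5.81 ± 0.25 (SD, n = 5), a difference of 0.54 (exact permutation p = 0.143). This difference turned to -1.01 with 0.5 added to each FPKM. It was -1.02 after removal of the trend with GC content and length, a setting that also adds 0.5 to each FPKM. The turn is therefore not shown for that correction by itself.

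The members were set beside 64 other genes of calcium handling, listed by role, of which 49 were tested. In HF week 5 against control 12 of the 49 were lower and 6 were higher, where 12.4% and 11.6% of all genes were, and the median log2 fold change was -0.09. Among partners of the release channel 4 of 14 fell and 1 rose. Tmem38b and Tmem38a, potassium channels of the reticulum that balance charge during release, fell by 0.86 and 0.63, and Calm3, a calmodulin gene, fell by 0.74, whereas Casq1, the calsequestrin of skeletal muscle, rose by 1.54. Casq1 was at 14.2, 22.2 and 8.46 in the HF libraries, where 8 skeletal muscle markers summed to 33.1, 10.9 and 10.6 against 8.32 to 10.8 in control, with Myh4 listed at 0 in these HF libraries. The part of skeletal muscle in this rise was not tested. Among regulators of uptake 4 of 8 fell and 2 rose. Pde3a, a phosphodiesterase that limits cyclic AMP at the pump, fell by 1.39, Prkaca, the catalytic subunit of protein kinase A, fell by 0.85 and Ppp1r3a, a phosphatase subunit, fell by 0.67. Sln, an inhibitor of the pump made in the atrium, had a log2 fold change of 7.09 and was at 9904, 147 and 1.28 in the HF libraries, the same order as Myl7, against at most 0.988 in control.

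Among genes of the tubule and of the channel subunits 2 of 12 fell and 3 rose. Cacnb2, the auxiliary subunit that carries Cacna1c to the membrane, fell by 1.35 and Cacna1s, the L-type pore of skeletal muscle, by 1.05. Cacna1s, which is also 1 of the 8 skeletal muscle markers, was at 0.503, 2.39 and 2.32 in the HF libraries against a control median of 3.80, lowest in library 1. Rem1, an inhibitor of L-type channels, rose by 0.81 and Bin1, which shapes the tubule membrane, by 0.74. At the surface membrane, Atp1b1, a subunit of the sodium pump that sets the gradient for Slc8a1, fell by 0.77, and the other 4 genes tested were not called. None of 7 genes of store-operated and inositol trisphosphate release was called by limma at an adjusted p, and 2 had an unadjusted p under 0.05, both higher. Of 3 mitochondrial genes tested, Vdac1 fell by 0.95. Against HF week 5, 9 of the 49 were higher and 7 were lower in Recovery week 19, where 24.2% of all genes were called in either direction, among them Pde3a (1.67), Cacnb2 (1.27) and Casq1 (-1.61). None was called in Recovery week 19 against control by limma at an adjusted p under 0.05, and 1 was at an unadjusted one.

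**Figure D5:**
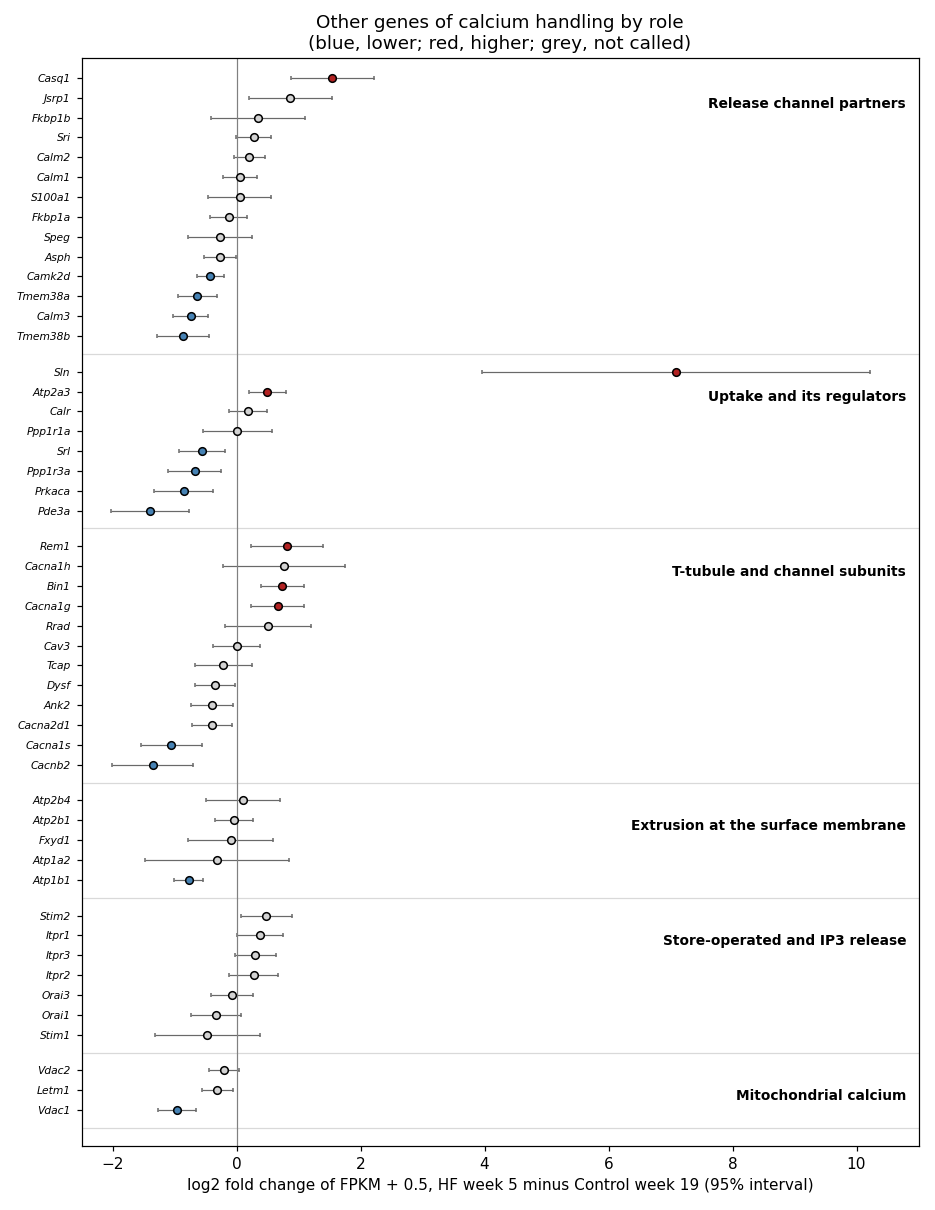
Log2 fold change of FPKM + 0.5 in HF week 5 against Control week 19 with its 95% interval (horizontal axis) for the 49 other calcium handling genes tested, by role; blue is called lower, red called higher and grey not called. The 12 lower genes lie between -1.39 and -0.42, and Sln stands alone at 7.09.

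Over all 24 libraries, Jph2 was most like Jph1 among the members, with a Pearson correlation of 0.92 of their log2(FPKM + 0.5), followed by Slc8a1 (0.89), Casq2 (0.89), Atp2a2 (0.79) and Pln (0.77), and least like Trdn (0.30). These values describe libraries that differ by group and that share scale and the length trend. After subtraction of group means they were 0.82 for Cacna1c, 0.64 for Jph1, 0.53 for Casq2 and -0.01 for Atp2a2. Among all genes tested outside the members, the 5 most like Jph2 were Acss1 (0.98), Dynll2 (0.98), Fitm2 (0.98), Fbxo40 (0.97) and Kif1c (0.97). Of these, Acss1, a mitochondrial enzyme that activates acetate, was at 48.6% of control in HF week 5, with a log2 fold change of -1.06 against -2.74 for Jph2, and Dynll2, a dynein light chain, was at 35.7% with a log2 fold change of -1.48. Fbxo40, an F-box protein of muscle, was at 13.2% with a log2 fold change of -2.67, close to that of Jph2, and Fitm2 and Kif1c had log2 fold changes of -1.44 and -0.75.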

How the data were processed

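The authors enriched mouse heart RNA for poly(A), aligned paired reads to MGSCv37 with TopHat and computed the deposited FPKM with Cuffdiff; the annotation and the scaling between libraries are not given in the sources used here. By the study's methods the frozen tissue was the apical part of the heart, by the labels the whole ventricle. Columns were matched to groups by name. Of the columns of single samples, 5 stayed out, as their names point to the week 5 controls but only 4 such samples are labelled. Recovery week 9 has 2 columns for 3 labelled samples. The labels' recovery weeks 2, 4, 6, 8 and 14 are study weeks 7, 9, 11, 13 and 19.

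The 12759 genes whose mean reached 0.5 FPKM were tested on the scale of log2(FPKM + 0.5). The limma model (version 3.58.1, R 4.3.3) had 8 group means, 16 residual degrees of freedom and a trended eBayes prior. All tests were two-sided, and a gene was called at a Benjamini-Hochberg adjusted p under 0.05, where the authors used an unadjusted p. Ratios were compared with an exact permutation test (scipy 1.17.1), adjusted over 12 comparisons. In simulated data for HF week 5 against Control week 19, with 12759 genes, recovery was 71% for genes given a log2 change of 1 and 99% for a change of 2.

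The members and lists were chosen with earlier results of these data known. Named are the 10 members, from each role up to 4 of the other genes called in HF week 5 with the largest fold changes, and the 5 genes most like Jph2. Of the 64 listed genes, 15 were below the filter or not found by symbol, and 1 further gene of the list is not reported here. GC content and length were read from the GENCODE transcripts (GRCm38) for 93.6% of the genes tested. Alternatives were pseudocounts of 0.1 and 1, no filter or a mean of 1 FPKM, the unadjusted p, only the groups compared, median, quantile and cardiomyocyte marker centring, no HF week 3 libraries and leaving out in turn each library of weeks 5 (HF) and 19 (Recovery and Control). Added after seeing the data were a loess correction for GC content and length (span 0.3), a fit without HF week 3 library 1 and a fit without HF week 5 library 1, Recovery week 19 library 5 and Control week 19 library 5. Promoter windows are those of RefSeq on GRCm38.p6, and no coordinates were taken from the build of the files.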

Additional observations from a re-analysis of the deposited data

Results flagged for a closer look

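Among 20 sets of 5 libraries, each member in Control week 19 and in Recovery week 19, a library far from the others was found in 2 by Dixon's ratio (critical value 0.71), and chance alone marks about 1 set in 20. Jph1 was at 0.661 FPKM in Control week 19 library 5, with a ratio of 0.772, while the other 4 control libraries were at 1.99 to 2.38. Atp2a2 was at 1926 FPKM in Recovery week 19 library 3, with a ratio of 0.719, and that value lies within the control range.

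The difference from control was not the same in weeks 3 and 5 of HF for 3 members by the test of week 3 against week 5: Ryr2 with a log2 fold change of -0.86 (limma adjusted p = 0.0199), Atp2a2 with -1.31 (adjusted p = 0.000531) and Pln with -1.03 (adjusted p = 0.0279). These rest on 2 and 3 libraries.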

How the results depend on the processing

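Depth is unknown, groups hold 2 to 5 libraries, and the age of the mice is confounded with HF. The count of members called moved, among others, as follows, and the cause was not tested. Shares of all genes are given above for the unadjusted p in Recovery against control, and not for the other settings. The counts therefore describe only how the members' calls depend on the setting, and not the members against all genes. With an unadjusted p it was 1, 1, 4 and 2 in Recovery weeks 19, 9, 11 and 13 against control, 8 in HF week 5 against control, and 4 and 6 in HF week 3 and Recovery week 7 against HF week 5, and 1 gene of the wider list was higher in week 19. With only the groups compared it was 5 in HF week 5 against control and 5 in Recovery week 19 against HF week 5, 0 in HF week 3 against HF week 5, 2 in Recovery week 7 against HF week 5 and, against control, 1 in Recovery week 13 (Cacna1c). With cardiomyocyte centring it was 4 and 6 in HF weeks 5 and 3 against control, 4 and 3 in Recovery weeks 19 and 7 against HF week 5 and 2 in HF week 3 against HF week 5. Without HF week 3 library 1 it was 1 in HF week 3 against HF week 5. Without the 3 libraries it was 5 there and 5 for HF week 5 relative to control, 5 and 3 in Recovery weeks 19 and 7 against HF week 5, 4 in Recovery week 11 against control and 2 in Recovery week 13. Leaving out 1 library at a time gave 5 to 8 in HF week 5 against control and 5 to 6 in Recovery week 19 against HF week 5 (both lowest without HF week 5 library 1), 1 to 4 in HF week 3 against HF week 5 (lowest without HF week 5 library 2) and 2 to 6 in Recovery week 7 against HF week 5 (lowest without library 1).

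The sign turned only for log2 differences that were not called. With median centring Trdn was 0.00029 in Recovery week 19 against HF week 5. With quantile normalization Jph2 was 0.018 in Recovery week 19 against control, Jph1 0.35 in HF week 3 against HF week 5, and Pln -0.26 and Trdn -0.038 in Recovery week 13 against control. With cardiomyocyte centring Jph2 (0.097), Atp2a2 (0.018), Pln (0.041) and Casq2 (0.046) turned in Recovery week 19 against control, Casq2 (0.30) and Slc8a1 (0.12) in HF week 3 against HF week 5, and Trdn (-0.0097) in Recovery week 7 against HF week 5. With GC and length correction Trdn was 0.012 in Recovery week 19 against HF week 5 and Casq2 0.13 in HF week 3 against HF week 5, and Casq2 was 0.065 there without HF week 3 library 1. Without the 3 libraries Trdn was 0.16 and Hrc -0.10 in Recovery week 19 against HF week 5, and Hrc was -0.17 in Recovery week 7 against the same group. The ratio of Jph2 to Jph1 in HF week 5 against control turned to -1.01 with 0.5 added to each FPKM. It was -1.02 with GC and length correction, which also adds 0.5 to each FPKM and so is no separate turn.

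Leaving out 1 library at a time gave -0.25 to 0.16 for Jph2, -0.45 to 0.048 for Jph1 and -0.34 to 0.036 for Cacna1c in Recovery week 19 against control. It gave -0.16 to 0.13 for Trdn and -0.078 to 0.40 for Hrc in Recovery week 19 against HF week 5, -0.20 to 0.072 for Casq2 in HF week 3 against HF week 5 and -0.17 to 0.31 for Hrc in Recovery week 7 against HF week 5. In HF week 5 against control the ratio of Atp2a2 to Pln ranged from -0.30 to 0.42 and that of Casq2 to Ryr2 from -0.42 to 0.024.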
